A study of Drosophila melanogaster with 6 samples.

Results

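A group of 4 genes, takeout and genes listed as its relatives, whose proteins are thought to carry greasy ligands, was followed here in whole adult fruit flies: takeout (to, CG11853), daywake (dyw, CG2650) and the adjacent pair CG7953 and CG7968. They are 4 of the 254 genes that the authors' deposited table of differences names by 1 CG number each, and each has 1 of the 18769 probe sets that are not manufacturer's controls. The members were chosen from that table, which was itself selected on the comparison of these 6 arrays. Every difference between the groups is therefore given below as a description. No pass in a fit to these arrays is an independent test of a member. Of the 6 arrays, 3 (replicates 1 to 3) held RNA of the strain Canton S, and 3 that of flies labelled DHR96 mutant, after an earlier name for the nuclear receptor Hr96; the series calls Canton S the genetic match. All flies were whole adults aged 7 days on standard food, and each labelling reaction took 6 ug of total RNA. The labels used here give neither the allele, the sex of the flies, the hour of collection nor whether flies were pooled, and do not say whether replicates came from separate cultures, so the spread between arrays may be technical.

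Takeout and its relatives resemble the juvenile hormone binding proteins of moths, which carry that lipid-like hormone through the blood. Such proteins enclose a hydrophobic ligand in a long pocket, and the ligands of most fly members are not known. In adult flies takeout is known as a clock-controlled gene that also responds to starvation, is made in fat body, gut and taste and smell organs, and has been tied to feeding and to male courtship. Daywake lies beside the clock gene period and has been tied to daytime sleep. CG7953 and CG7968 are little studied. Hr96 itself is known for roles in the response to foreign chemicals and in the handling of cholesterol and triglyceride.

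The label of these genes as one family was checked against the synonyms of the RefSeq gene table. Of the 17 genes that carry a JHBP synonym there, takeout (JHBP9) and daywake (JHBP8) are 2. CG7953 and CG7968 carry none, so their place beside takeout rests on the wider family list and not on this table. That list holds 28 genes, all of them found in the gene table. It was not checked against protein sequences here.

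The deposited values are intensities that the authors had normalized between arrays, in arbitrary units; array medians ran from 470.4 to 484.2 and array minima from 97.2 to 103.4. Differences are means of log2(intensity + 16), mutant minus Canton S, so those of dim probe sets are understated. Each SE is from a limma fit to all probe sets, which draws each variance toward that of probe sets of like brightness. For each member the SE is smaller than its own arrays alone would give. Brightness of different probe sets does not rank their transcripts. The probe set of Hr96 read 527, 498 and 546 in Canton S and 977, 985 and 928 in the arrays labelled DHR96 mutant. It therefore did not fall, the place of its probes relative to the mutation is not given, and every direction below rests on the labels. A spike-in control, the Dap 3' RNA added during labelling, read 473 and 519 in DHR96 mutant replicates 2 and 3 and 1007 to 1217 in the other 4 arrays. The comparison within that inferred batch sets DHR96 mutant replicate 1 alone against Canton S, and its values are given beside those of the members, their relatives and the other carriers.

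Takeout was the member that was lower in the arrays labelled DHR96 mutant. Its probe set read 2234, 2204 and 2388 in Canton S and 1640, 1563 and 1512 in the mutant arrays. The groups did not overlap, and the lowest Canton S array was 1.34 times the highest mutant array. The means were 2275 ± 99.1 and 1572 ± 64.5 (SD, n = 3 each), a log2 difference of -0.53 (SE 0.0459), or 1.44-fold. Because whole flies were measured, less takeout RNA per cell and fewer cells making it cannot be told apart, here and for every gene below. Replicate 1 alone differed from the Canton S mean by -0.47, against -0.54 and -0.58 for replicates 2 and 3, so the gene was lower on each of the 3 mutant arrays, also within the spike-in batch.

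Daywake was higher in the arrays labelled DHR96 mutant, with the widest spread of the 4 genes. It read 1617, 1822 and 1070 in Canton S and 2403, 3322 and 4715 in the mutant arrays. The groups did not overlap but lay close, the lowest mutant array being 1.32 times the highest Canton S array. The means were 1503 ± 389 and 3480 ± 1164 (SD, n = 3 each), a log2 difference of 1.18 (SE 0.263), or 2.27-fold. The 2 arrays with low Dap control were also the 2 highest for daywake, and replicate 1, within the batch of the controls, differed from the Canton S mean by 0.71. The part of the batch in the larger value was not tested.

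CG7953 had the largest difference of the 4 members. It read 6367, 7709 and 6351 in Canton S and 18957, 18437 and 17451 in the arrays labelled DHR96 mutant. Every mutant array was at least 2.26 times the highest Canton S array. The means were 6809 ± 779 and 18282 ± 765 (SD, n = 3 each), a log2 difference of 1.43 (SE 0.0753), or 2.69-fold. Within the spike-in batch the value was 1.48. In the mutant arrays its probe set stood between the 99.1 and 99.4 percentile of brightness, against 96.5 to 97.2 in Canton S, so it was far from the background in both groups.

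CG7968, its immediate neighbour, differed in the same direction by less. It read 872, 1041 and 834 in Canton S and 1357, 1395 and 1272 in the mutant arrays. The groups were 1.22-fold apart at their nearest arrays. The means were 916 ± 110 and 1341 ± 62.8 (SD, n = 3 each), a log2 difference of 0.55 (SE 0.0817), or 1.46-fold, and 0.57 within the spike-in batch.

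**Figure D1:**
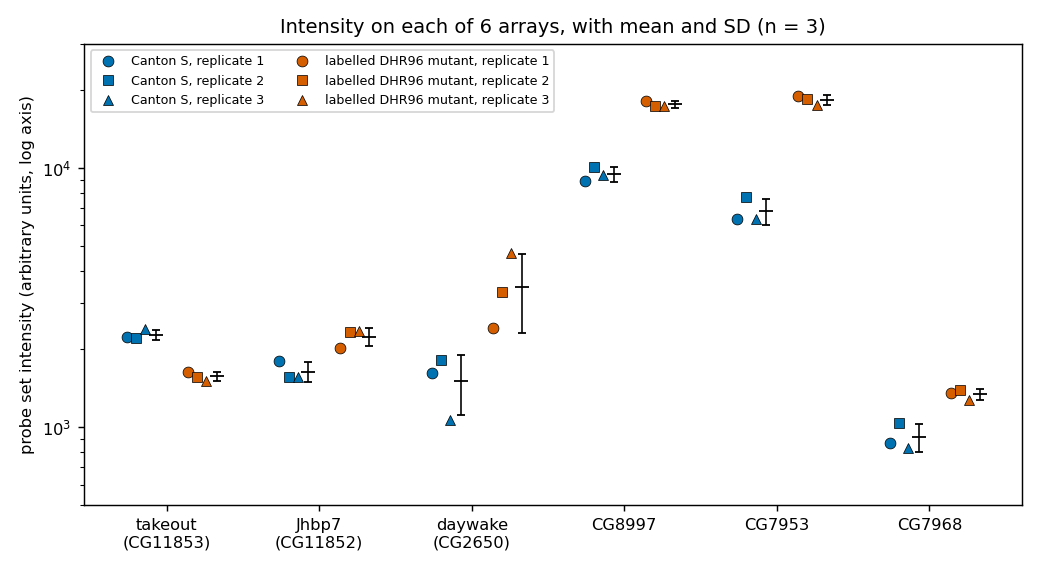
Intensity (arbitrary units, log axis) of the probe sets of the 4 members and of 2 relatives, Jhbp7 and CG8997, on each array; points are arrays, bars the mean and SD of 3. Takeout sits lower in the arrays labelled DHR96 mutant and the other 5 genes higher, with daywake spread from 2403 to 4715 in the mutant arrays.

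The 3 members that were higher and the 1 that was lower all had groups without overlap. That arrangement is common on these arrays: 13.9% of all probe sets had every mutant array above every Canton S array, and 17.0% had every one below. The median absolute log2 difference was 0.87 over the 4 members and 0.067 over all 18769 probe sets; the signed medians were 0.87 and -0.002. From the highest difference down, CG7953 ranked 9, daywake 13 and CG7968 104, and takeout ranked 72 from the lowest. As the members come from a table chosen for such differences, nothing is read from these counts and ranks.

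The authors' own values chose the members. In the authors' deposited table, the signed folds are -1.45 for takeout, 2.32 for daywake, 2.68 for CG7953 and 1.46 for CG7968. The authors' q-value, the false discovery rate of their SAM ranking, is 0.390% for daywake and 0 for the other 3. All folds in the authors' deposited table are at least 1.301 in size and all q-values at most 2.18%, so takeout and CG7968 are the members nearest to its lower limit. Just inside it, the authors' deposited table also holds the relative Jhbp7 at a fold of 1.36 and a q-value of 1.01%. Probe sets just outside it carry no gene name in the files.

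How steady the arrays of a group were differed between the members. The SD within groups of the log2 values was 0.060 for takeout, near the median of 0.061 over all probe sets and at the 49.0 percentile. CG7953 and CG7968 had 0.12 and 0.13, at the 89.2 and 90.4 percentile. Daywake had 0.44, at the 99.4 percentile, so few probe sets of the array varied more between arrays of the same label. In Canton S the coefficient of variation was 25.9% for daywake and 4.35% for takeout; in the mutant arrays it was 33.5% and 4.11%. Canton S replicate 3 had the lowest daywake value and the highest takeout value of its group, and DHR96 mutant replicate 3 had the highest daywake and the lowest takeout value of its own.

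**Figure D2:**
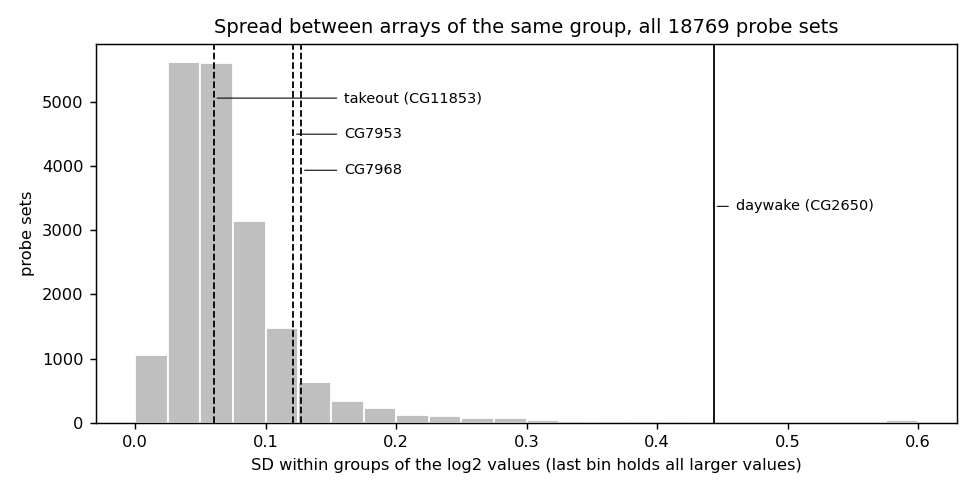
Number of probe sets (vertical axis) by SD within groups of the log2 values (horizontal axis), over all 18769 probe sets; vertical lines mark the members. Takeout lies at the centre of the distribution at 0.060, CG7953 and CG7968 at 0.12 and 0.13, and daywake in the far tail at 0.44.

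CG7953 and CG7968 lie in a run of genes listed as relatives of takeout on chromosome arm 2L. In the gene order of Release 6 the run reads CG33306, CG8997, CG7916, CG7953 and CG7968, and all 5 are in the takeout family list. Of these, 3 have a row in the deposited table, and all 3 read higher on the mutant arrays. CG8997, which was not among the members, read 8883, 10064 and 9356 in Canton S and 18131, 17233 and 17321 in the mutant arrays. Its means were 9434 ± 594 and 17562 ± 495 (SD, n = 3 each), a log2 difference of 0.90 (SE 0.0475) and 0.94 within the spike-in batch. The probe sets of CG33306 and CG7916 are not identified here.

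The genes of the run did not differ by equal amounts. Within each array, the log2 value of CG7953 was 2.85, 2.87 and 2.91 above that of CG7968 in Canton S and 3.79, 3.71 and 3.76 above it in the mutant arrays, so their relative signal shifted by 0.88. Against CG8997, CG7953 stood at -0.48, -0.38 and -0.56 in Canton S and at 0.06, 0.10 and 0.01 in the mutant arrays, a shift of 0.53. These offsets hold probe effects and are no ratio of transcripts; their shift between groups does not depend on those effects as long as the probes respond in proportion. CG7953 and CG7968 also shared the order of their Canton S arrays, with replicate 2 the highest and replicate 3 the lowest for both. For CG7953 replicates 1 and 3 were nearly equal, at 6367 and 6351. The order was not particular to the pair, as daywake, Obp56e, Obp83g and Obp99b had it too. CG8997, of the same run, did not, its lowest Canton S array being replicate 1.

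Takeout lies on chromosome arm 3R between Jhbp7 (CG11852) and CG11854, which are both on the takeout family list. Jhbp7, of the same JHBP-named group, was higher in the arrays labelled DHR96 mutant while takeout was lower. It read 1803, 1557 and 1557 in Canton S and 2021, 2325 and 2360 in the mutant arrays. Its means were 1639 ± 142 and 2235 ± 186 (SD, n = 3 each), a log2 difference of 0.44 (SE 0.0775). The groups were 1.12-fold apart at their nearest arrays, and replicate 1, in the batch of the controls, differed by 0.30. Jhbp7 minus takeout was -0.31, -0.50 and -0.61 on the log2 scale in Canton S and 0.30, 0.57 and 0.64 in the mutant arrays, a shift of 0.97 between adjacent genes. The probe set of CG11854 is not identified here.

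Daywake lies on the X chromosome between period (per) and Spg7, with its end overlapping that of period in the gene table. Neither neighbour has a row in the deposited table, and their probe sets are not identified here, so no level of period stands beside that of daywake.

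**Figure D3:**
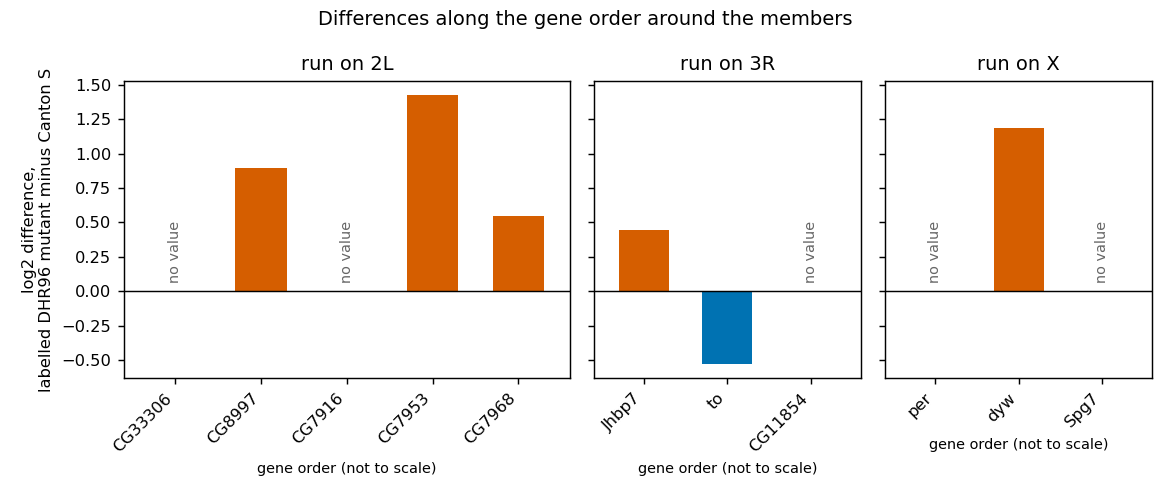
Log2 difference, arrays labelled DHR96 mutant minus Canton S, for genes in chromosome order (not to scale) on 2L, 3R and X; bars are means of 3 against 3 arrays, and genes without an identified probe set have no bar. CG8997, CG7953 and CG7968 all stand above 0 at 0.90, 1.43 and 0.55, while takeout at -0.53 stands beside Jhbp7 at 0.44.

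Over the whole takeout family list of 28 genes, 6 have a row in the deposited table, the 4 members with Jhbp7 and CG8997, and 22 were not identified here. Of the 17 genes with a JHBP synonym the table holds takeout, daywake and Jhbp7, or 3. In the fit over all probe sets (limma, Benjamini-Hochberg adjusted p under 0.05), 5 of these 6 genes passed as higher and 1, takeout, as lower. Among all probe sets 6.96% passed, 3.29% as higher and 3.67% as lower (617 and 689; 630 and 463 after quantile normalization). The table was chosen on this same contrast, so the 6 of 6 describes that choice, and no pass below is an independent test. With the spike-in batch as a block, the log2 difference rests on DHR96 mutant replicate 1 alone, so only its size is given. It was then 1.48 for CG7953, 0.94 for CG8997, 0.71 for daywake, 0.57 for CG7968, 0.30 for Jhbp7 and -0.47 for takeout. Without Canton S replicate 1, daywake and CG7968 no longer passed. Leaving out replicate 2 or replicate 3 of either group, 1 array at a time, ended the calls of Jhbp7 and daywake.

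The deposited table holds 260 probe sets, 1.39% of those tested, so most genes of any list lie outside it. Of 13 circadian clock genes and 12 juvenile hormone genes listed for comparison, among them period, timeless and the hormone's esterases and receptors, the table held none; the authors' selection alone decides this, and their probe sets are not identified here. Of 9 genes of the sex-determination and head fat body list it held sxe2, a lipase-family gene, which read 2422 ± 118 in Canton S and 1558 ± 69.7 in the mutant arrays (SD, n = 3 each). Sxe2 thus differed by -0.63 on the log2 scale, the same direction as takeout, and by -0.56 within the spike-in batch. Of 63 genes for other small ligand carriers, the odorant-binding proteins, Npc2 sterol carriers, lipocalins and the fatty acid binding protein, the table held 9, of which 5 passed as higher, 3 passed as lower and 1 did not pass, against 3.29% and 3.67% of all probe sets. These 9 too were selected by the authors on the same contrast, so the counts describe that selection, and the other 54 genes were not identified here.

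Among those carriers, the 4 odorant-binding protein genes with a row were all higher: Obp99b by 0.79, Obp56e by 0.56, Obp83cd by 0.54 and Obp83g by 0.49 on the log2 scale, and by 0.61, 0.49, 0.47 and 0.44 within the spike-in batch. Most of the authors' deposited table is higher, 180 probe sets against 80 lower, or 69.2%. The Npc2 genes with a row went both ways. Of the 5 Npc2 genes, Npc2d, Npc2g and Npc2h were lower, by a log2 difference of -3.56, -0.48 and -0.47, and Npc2e was higher by 4.37; within the spike-in batch these were -3.63, -0.36, -0.38 and 4.44. Npc2c read 262 ± 11.2 in Canton S and 446 ± 129 in the mutant arrays (SD, n = 3 each) and did not pass, with 0.59 within the spike-in batch against a log2 difference of 0.70.

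For each member, the other 253 named genes of the deposited table were ordered by how closely their values followed it over the 6 arrays. The measure was the root mean square difference between log2 profiles, each taken from its own Canton S mean, so a small value means a like difference and a like scatter. The closest to takeout were Npl4, a cofactor in the removal of ubiquitin-tagged proteins, at 0.044, CG14277 at 0.059 and CG11368 at 0.067. Npl4 read 8068 ± 317 in Canton S and 5509 ± 173 in the mutant arrays (SD, n = 3 each). These profiles share the 6 arrays and the selection of the table, and nothing is said of shared control.

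Daywake was closest to Cht5, a chitinase gene, at 0.159, then to Fbp2, a fat body protein gene, at 0.201 and Lsp1gamma, a larval serum protein gene, at 0.212. In each of the 4 genes DHR96 mutant replicate 3 was the highest array, replicate 2 the next and replicate 1 the lowest of the mutants, and Canton S replicate 3 was the lowest of all. Relative to their Canton S means the mutant arrays stood at 0.71, 1.17 and 1.67 for daywake, and Cht5 went from 1290 ± 248 to 2950 ± 760 (SD, n = 3 each). The closest genes were picked for such likeness, and those picked for daywake had its scatter between arrays as well as its difference. The 2 mutant arrays that were highest for these genes were again those with low Dap control, whose part in this was not tested.

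CG7953 was closest to Npc1b, which serves sterol absorption in the gut, at 0.085, then to Smg6, whose product acts in nonsense-mediated decay, at 0.131 and CG4734 at 0.134. Npc1b read 426 ± 26.4 in Canton S and 1094 ± 49.4 in the mutant arrays, and CG4734 4089 ± 225 and 11383 ± 1089 (SD, n = 3 each). CG7968 was closest to Obp56e, an odorant-binding protein gene, at 0.050, then to CG11089 at 0.058 and CG11458 at 0.060. Obp56e read 2577 ± 231 in Canton S and 3787 ± 183 in the mutant arrays (SD, n = 3 each). No member was among the 3 closest genes of another.

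**Figure D4:**
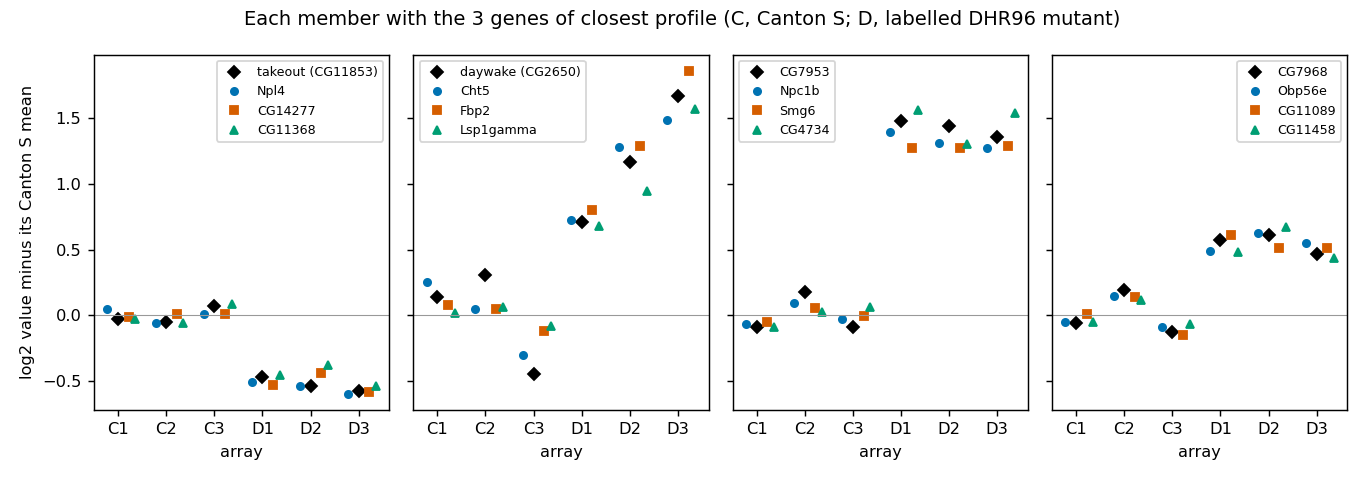
Log2 value minus its own Canton S mean on each array (C, Canton S; D, arrays labelled DHR96 mutant; replicates 1 to 3) for each member and the 3 genes closest to it. The mutant arrays of takeout sit together between -0.58 and -0.47 and those of CG7953 between 1.36 and 1.48, while those of daywake and its 3 closest genes spread, daywake from 0.71 to 1.67.

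Under other settings the sizes of the differences moved less for CG7953 and CG7968 than for daywake. Over 12 alternatives the log2 difference ran from 1.38 to 1.52 for CG7953, from 0.49 to 0.64 for CG7968 and from -0.56 to -0.47 for takeout. For daywake it ran from 0.71 to 1.42, the low end being the value within the spike-in batch and the high end the value without DHR96 mutant replicate 1. Since the groups did not overlap, the direction was fixed for every array left out and for the comparison within the spike-in batch.

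**Figure D5:**
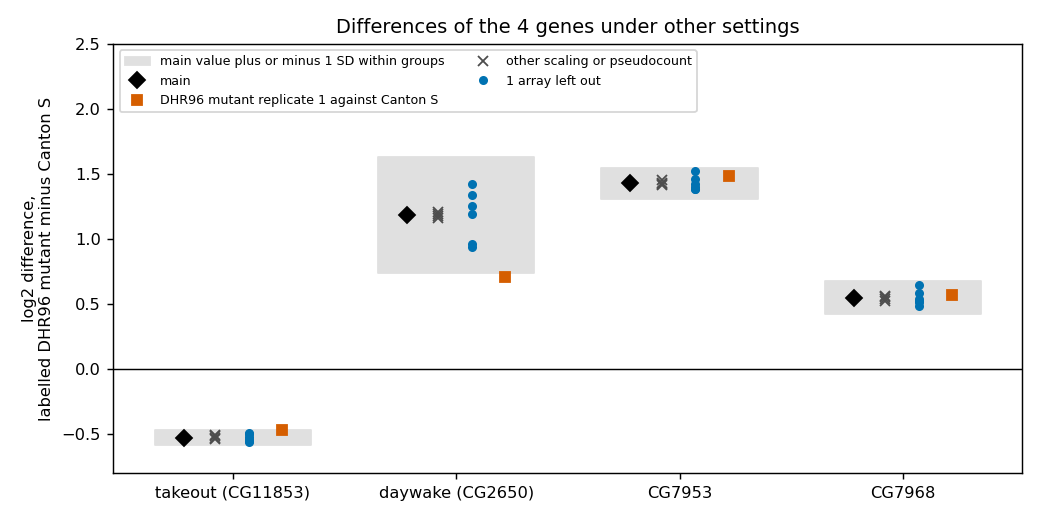
Log2 difference of each member (arrays labelled DHR96 mutant minus Canton S) as reported, under other scalings and pseudocounts, with each array left out, and for the comparison within the spike-in batch; grey bands show the reported value plus or minus 1 SD within groups. Daywake at 0.71 and takeout at -0.47 leave their bands in the comparison within the batch, and CG7953 and CG7968 stay inside theirs throughout.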

How the data were processed

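Per the labels, biotin-labelled cRNA of 6 whole-fly RNA samples was hybridised to Affymetrix arrays. The deposited intensities of 18952 probe sets had been normalized between arrays by the authors; MAS5 appears in the submitters' processing notes without its version or its role, so the background correction is unsettled, and detection calls were not used here. Per the file headers, the authors' deposited table (286 rows, 260 probe sets) gives SAM scores with their log2 numerators, folds carrying a sign, and q-values as a percent; the numerator equalled the difference of mean log2 intensities, mutant minus Canton S, within 5.68e-10. Its build and detailed method are not given in the sources used here.

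The 183 control probe sets were set aside. limma 3.58.1 in R 4.3.3 (lmFit, eBayes with trend) was fitted to log2(intensity + 16) for 18769 probe sets with group as the only term, two-sided, with Benjamini-Hochberg adjustment, a threshold of 0.05 and no filter, after being tested on simulated data. This fit supplied the background shares, the SEs and whether a gene passed. Genes were named from the deposited table's CG numbers through the RefSeq gene table (Release 6), for names and gene order alone. The members and lists were chosen with earlier results of these data known. Named genes were the members, every gene of the fixed lists that has a row, and the 3 closest profiles per member; gene lists were matched by symbol, synonym or CG number. Protein and promoter sequences were not used here. Alternatives were other scalings, pseudocounts, variance model, filter and threshold, a replicate block, a block for the spike-in batch, and leaving out single arrays. The number of arrays limits the precision.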

Additional observations from a re-analysis of the deposited data

How the results depend on the processing

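Of 48 alternative values of the 4 members' log2 differences, 46 stayed within 1 SD of the reported value and all kept its direction. The others, with the spike-in batch as a block, were 0.706 for CG2650 (daywake) and -0.468 for CG11853 (takeout). The replicate block could not move any of these values, as each number occurs once in each group. Nor could leaving out 1 of the 3 arrays of a group move a value by as much as 1 SD. As the groups did not overlap, the direction was also fixed with an array left out and with the spike-in batch as a block. The 46 is therefore largely set by the design. The SD is each gene's own within groups, so daywake had the widest allowance and takeout the narrowest. The count of 1306 probe sets past the threshold became 31 with that block, 813 without a variance trend, 258 with a fold of at least 1.3 as well, and 287 to 803 with an array left out; the cause was not tested beyond the fewer samples of the last. It kept within 1.5 times (1030 to 1548) under the other scalings, pseudocounts and filter. With the replicate number as a block the count was 240, and 4 of the 6 family genes passed, daywake and Jhbp7 (CG11852) not. Same-numbered arrays deviated together in 1 of 3 pairs (r = 0.190, -0.225 and -0.244 over all probe sets). These deviations are from means of 3 arrays, so the r values are not independent. They cannot settle whether same-numbered arrays were prepared together, which the labels do not say. Without a variance trend daywake also did not pass. The family genes were selected on this same contrast, so these passes are no independent test of them.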
